A study of Mus musculus with 12 samples.

Results

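The genes described here are 8 that dendritic cells (DCs) use to tune T cells through cell contact: Cd80, Cd86, Cd83, Cd274, Pdcd1lg2, Icosl, Cd200 and Havcr2. They were taken by symbol from a table of counts for 54532 mouse genes, each symbol matched 1 row, and all 8 were among the 14293 genes with enough counts to test. RNA was sequenced from CD11c-selected spleen cells of mice without Slc29a3 (genotype SLC29A3-/- on C57BL6, called KO) and of WT C57BL6 mice. Slc29a3 encodes ENT3, a nucleoside transporter of lysosomes. Cells of either genotype were exposed to attenuated Salmonella typhimurium (labelled STmDfla, called STm here), with a pulse of 30 min at MOI 10, then a wash and a chase lasting 3 h, or were left untreated. There were 4 groups of 3 libraries: KO with STm, KO untreated, WT with STm and WT untreated. Library numbers 1 to 3 come from the labels, which name no animal of origin; the p-values below thus cover the spread among these libraries. In each group library 1 differed in sex-linked RNA from libraries 2 and 3, so the 3 were not all repeats of 1 source, and whether libraries 2 and 3 came from separate animals is not stated. Neither the type of the Slc29a3 deletion nor the age of the mice is given here. The selected cells are described as a mixture of cDC1 (CD8+) and cDC2 (SIRPα+), the conventional DC subsets, after depletion of T, B and NK cells.

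A T cell that meets its antigen needs a second signal, which CD80 (B7-1) and CD86 (B7-2) on the DC give through CD28. The same ligands bind the inhibitory receptor CTLA-4 with higher affinity. ICOS ligand (Icosl) acts on ICOS of activated T cells, whereas PD-L1 (Cd274) and PD-L2 (Pdcd1lg2) act on the inhibitory receptor PD-1. CD83 marks mature DCs and keeps CD86 and MHC class II on the surface by opposing their ubiquitination by MARCH1. CD200 restrains myeloid cells through CD200R, and TIM-3, the product of Havcr2, is itself a checkpoint receptor that DCs carry, not a ligand of the B7 family.

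Cd274 and Pdcd1lg2 are neighbours on the plus strand of chromosome 19 (mm10), at 29367455 to 29388095 and 29410919 to 29471157, with a gap of 22.8 kb and no other gene of the table in between. They are shown here because they encode the ligands of 1 receptor, PD-1, from neighbouring genes; a difference between their changes was not tested. The 250 bases before their RefSeq start (GRCm38.p6), chr19:29367188-29367437 and chr19:29410669-29410918, read as follows on the plus strand, with matches to 5 searched motifs in capitals.
Cd274: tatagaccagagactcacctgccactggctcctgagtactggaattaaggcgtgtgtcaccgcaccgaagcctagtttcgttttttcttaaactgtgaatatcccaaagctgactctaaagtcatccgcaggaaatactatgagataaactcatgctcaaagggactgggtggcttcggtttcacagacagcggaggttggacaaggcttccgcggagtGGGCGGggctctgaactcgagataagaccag
Pdcd1lg2: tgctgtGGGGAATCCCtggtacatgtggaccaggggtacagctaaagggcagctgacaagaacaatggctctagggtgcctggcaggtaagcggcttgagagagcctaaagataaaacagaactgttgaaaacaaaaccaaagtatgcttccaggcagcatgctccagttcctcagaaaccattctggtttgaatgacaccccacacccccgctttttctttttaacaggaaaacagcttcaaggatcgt
The capitals mark GGGCGG, the core of a GC box, at base -31 from the Cd274 start, and GGGGAATCCC, a match to the kB consensus bound by NF-kB, at base -244 from the Pdcd1lg2 start. The other motifs, searched like these on both strands, were the core of an interferon-stimulated response element (GAAA, any 2 bases, GAAA), TTCNNNGAA, a STAT site, and TGANTCA, an AP-1 site. Of 32851 such windows in the RefSeq table, 32.7% held GGGCGG, 7.25% the kB consensus, 2.98% the interferon-stimulated core, 7.02% TTCNNNGAA and 6.75% TGANTCA. Among the 4 other members found there, the Icosl window held a kB match and GGGCGG, the Cd200 window GGGCGG, and the Cd80 and Havcr2 windows TGATTCA. The Cd80 window (chr16:38458683-38458932) lies inside the Cd80 span of the deposited table, which starts at 38455561. Its match is thus not upstream of that start. The Icosl window (chr10:78069118-78069367) runs past the table's Icosl start at 78069302. The matches describe letters in these windows only. Cd83 and Cd86 were not matched in that table.

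The other members lie on 4 further chromosomes (mm10, positions from the deposited table). Cd86 (36603869 to 36666081, minus strand), Cd80 (38455561 to 38496335, plus) and Cd200 (45382135 to 45409053, minus) are on chromosome 16. Cd83 spans 43784775 to 43803132 of chromosome 13, Icosl 78069302 to 78083913 of chromosome 10 and Havcr2 46454935 to 46481255 of chromosome 11, all on the plus strand. No other gene of the table overlaps a member.

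Counts summed over genes were 15946516 to 19087007 in KO with STm, 15814761 to 18561946 in KO untreated, 15693172 to 24074596 in WT with STm and 16432936 to 18107470 in WT untreated libraries. The DC genes Itgax, Flt3, Zbtb46, Cd74 and Dpp4 summed to 12895 to 14404 CPM (counts scaled to the normalised library total) in KO with STm, 10004 to 13718 CPM in KO untreated, 17922 to 21513 CPM in WT with STm and 15655 to 16658 CPM in WT untreated libraries, and 3 of 5 with STm and 2 of 5 untreated were called lower in KO. Markers of macrophages were called higher in KO than in WT libraries for 7 of 7 genes with STm and 6 of 7 untreated; their summed level was 579 to 1587 CPM in KO with STm, 590.0 to 1344 CPM in KO untreated, 160.3 to 187 CPM in WT with STm and 172 to 179 CPM in WT untreated libraries, and none of the 7 was at 0 in a group. Neutrophil markers (5 of 6 called higher in KO in either condition) summed to 80.4 to 983, 52.1 to 675, 10.1 to 16.9 and 7.02 to 10.1 CPM in the same order of groups. Y-linked genes were counted in number 1 libraries alone, which nearly lacked Xist, and the sum of 6 B cell markers was 74.4 to 94.96 CPM in them against 11.0 to 24.8 CPM in the libraries with other numbers. Of the subset lists, cDC1 markers (9 genes) had 0 called between genotypes with STm and 1 higher untreated. The cDC2 markers (6 tested) had 1 and 2 higher, but their median was negative, at -0.24 log2 with STm and -0.50 log2 untreated. Plasmacytoid DC markers (5) and T cell markers (5) had 0 called in both conditions. NK cell markers (2 tested) had 1 lower with STm and 0 untreated. Slc29a3 itself was counted in all KO libraries (124 to 191 CPM with STm, 63.5 to 94.0 CPM untreated) below the WT libraries of the same condition (197 to 233 CPM with STm, 99.2 to 110.2 CPM untreated), and a count over the whole gene does not check the deletion. In bulk RNA, fewer cells of a type and less RNA per cell cannot be told apart.

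Per kilobase of gene length in the deposited table, Cd83 was the most abundant member in all 4 groups, with 891 ± 298 CPM per kb in KO with STm, 536 ± 118 in KO untreated, 1772 ± 91.7 in WT with STm and 959 ± 53.8 in WT untreated cells (mean ± SD, n = 3 libraries each, here and below). Averaged over the 12 libraries, the order of levels per kb was Cd83 (1040), Cd274 (237), Cd86 (223), Havcr2 (173), Cd80 (115), Icosl (96.2), Pdcd1lg2 (37.4) and Cd200 (23.1). Cd274 and Cd86 stood close: their per kb ratio in single libraries ran from 1.07 to 1.40 in KO with STm, 0.896 to 1.27 in KO untreated, 0.884 to 1.25 in WT with STm and 0.669 to 1.01 in WT untreated. Counts of the members lay between 519 and 90812 per library, the lowest for Pdcd1lg2 and the highest for Cd83.

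**Figure D1:**
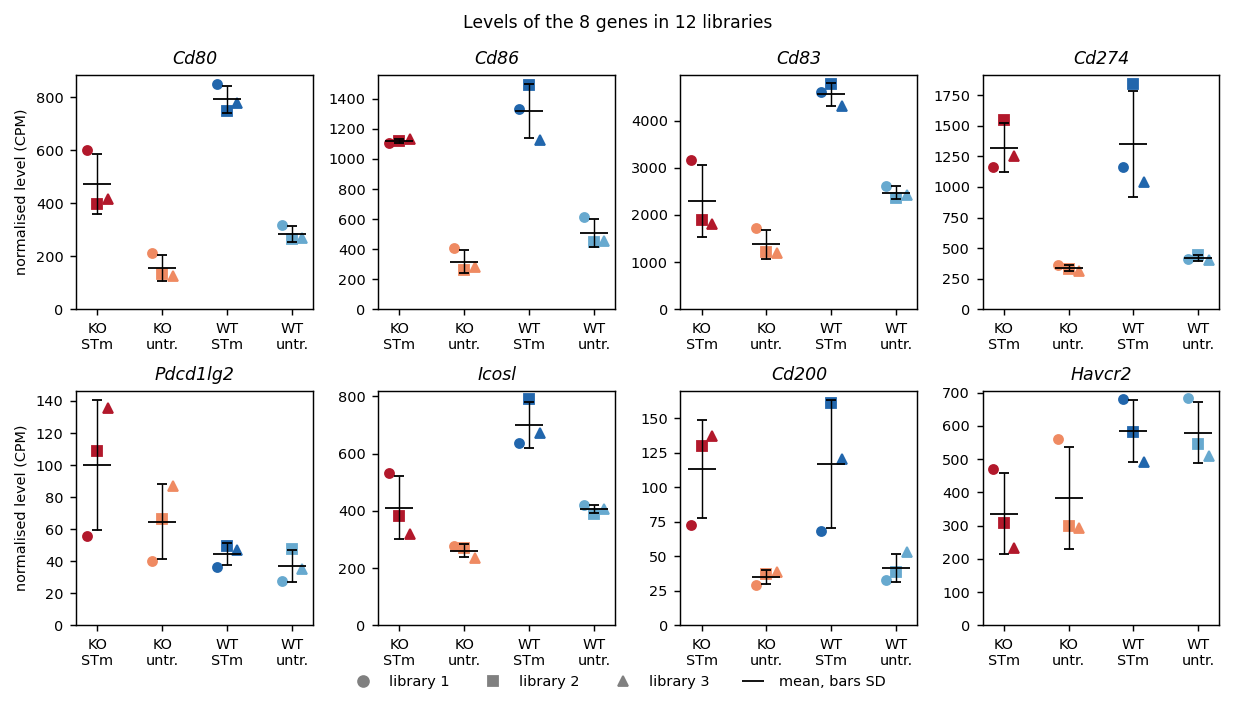
Normalised level (CPM, linear axis from 0) of each gene in the 12 libraries, by group, with the mean (line) and SD (bars) of 3 libraries; symbols give the library number. Cd80, Cd86, Cd83, Cd274, Icosl and Cd200 lie higher with STm in both genotypes without overlap, while Cd80, Cd83 and Icosl also lie lower in KO than in WT in both conditions.

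Bacteria raised 6 of the 8 genes in KO cells and the same 6 in WT cells: Cd80, Cd86, Cd83, Cd274, Icosl and Cd200 passed the edgeR quasi-likelihood test at an adjusted p under 0.05. Across all tested genes, 23% were called in KO cells (11.6% higher and 11.5% lower with STm) and 18.7% in WT cells (10.6% higher and 8.07% lower). Blocked by replicate number within genotype, edgeR called 4986 genes in KO and 4561 in WT cells, against 3292 and 2676 without it, and 7 members in KO cells, Pdcd1lg2 being the added one. The median change of the 8 members was 1.16 log2 in KO cells and 1.13 log2 in WT cells, against -0.07 and -0.04 log2 over all tested genes. In these 6 genes treated and untreated libraries did not overlap in either genotype, a separation that 40.3% of all tested genes showed in KO cells and 38.9% in WT cells. No member fell.

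Among the CD28 ligands, Cd86 had 1105, 1118 and 1136 CPM in KO libraries with STm, against 407, 264 and 279 CPM in untreated KO libraries. In WT it had 1335, 1490.3 and 1129.7 CPM with STm and 616, 449 and 454 CPM untreated. Every treated library lay above every untreated library of either genotype, and the 3 treated KO libraries had a coefficient of variation of 1.41%. The change was 1.82 log2 in KO cells (3.54-fold, SE 0.18, edgeR adjusted p = 2.41e-05) and 1.38 log2 in WT cells (2.60-fold, SE 0.18, edgeR adjusted p = 0.000259).

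Cd80 had 602, 399 and 416 CPM in KO libraries with STm, against 214, 133 and 126 CPM in untreated KO libraries. The WT values were 849.7, 747 and 780.4 CPM with STm and 319, 266 and 270.2 CPM untreated. Cd80 rose 3.00-fold in KO cells (1.59 log2, SE 0.21, edgeR adjusted p = 0.000198) and 2.78-fold in WT cells (1.47 log2, SE 0.21, edgeR adjusted p = 0.000483). The groups were ordered WT with STm, KO with STm, WT untreated and KO untreated, and no neighbours in that order overlapped. Per kb, Cd86 stood above Cd80 in every library, by 1.86 to 2.83 times in KO with STm, 1.92 to 2.25 times in KO untreated, 1.46 to 2.02 times in WT with STm and 1.70 to 1.95 times in WT untreated libraries.

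Cd83, whose product protects CD86 from turnover, was the most abundant member already in untreated cells. It had 3176, 1889.7 and 1809 CPM in KO libraries with STm, against 1730.2, 1214 and 1194 CPM in untreated KO libraries. It had 4599.9, 4769 and 4303 CPM in WT libraries with STm, against 2623, 2358 and 2421 CPM in untreated WT libraries. Its rise was smaller than those of Cd80 and Cd86 in both genotypes, at 1.66-fold in KO cells (0.73 log2, SE 0.21, edgeR adjusted p = 0.0222) and 1.85-fold in WT cells (0.89 log2, SE 0.21, edgeR adjusted p = 0.0112); the difference between genes was not tested. Treated KO libraries 2 and 3 lay below all untreated WT libraries. The KO call was lost without KO with STm library 1 (0.43 log2, edgeR adjusted p = 0.0786) or untreated KO library 2 (0.66 log2, adjusted p = 0.0986) or 3 (0.65 log2, 0.0943), and the WT call without untreated WT library 2 (0.83 log2, 0.062) or 3 (0.84 log2, 0.0554).

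Icosl followed the same course at lower levels. It had 533, 381 and 319 CPM in KO libraries with STm, against 276, 271 and 235 CPM in untreated KO libraries, and 637, 792 and 673 CPM in WT libraries with STm, against 419, 391 and 408 CPM in untreated WT libraries. The rise was 1.58-fold in KO cells (0.66 log2, SE 0.16, edgeR adjusted p = 0.0122) and 1.73-fold in WT cells (0.79 log2, SE 0.16, edgeR adjusted p = 0.00600). Without untreated KO library 3 the KO rise was 0.60 log2 (edgeR adjusted p = 0.0581). Treated KO libraries (319 to 533 CPM) overlapped untreated WT libraries (391 to 419 CPM).

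Of the PD-1 ligands, Cd274 showed the largest response of the 8 genes in both genotypes. It had 1165, 1547 and 1255 CPM in KO libraries with STm, against 361, 332 and 316 CPM in untreated KO libraries. In WT it had 1167, 1843 and 1043 CPM with STm, against 408, 447 and 404 CPM untreated. The treated groups overlapped each other and lay far above the untreated ones, a change of 1.98 log2 in KO cells (3.93-fold, SE 0.19, edgeR adjusted p = 1.99e-05) and 1.69 log2 in WT cells (3.22-fold, SE 0.19, edgeR adjusted p = 9.08e-05).

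Its neighbour Pdcd1lg2 was counted at lower levels, and whether its change with bacteria passed in KO cells depended on the fit. It had 55.8, 109 and 135 CPM in KO libraries with STm, against 40.3, 66.6 and 87.0 CPM in untreated KO libraries, and 36.7, 49.4 and 47.1 CPM in WT libraries with STm, against 28.0, 47.7 and 35.4 CPM in untreated WT libraries. Treated and untreated libraries overlapped in both genotypes. The change was 0.63 log2 in KO cells (95% interval -0.09 to 1.34, edgeR adjusted p = 0.194) and 0.26 log2 in WT cells (-0.46 to 0.98, edgeR adjusted p = 0.626), and neither passed. KO libraries differed by number, and each treated KO library lay 0.47 to 0.71 log2 above the untreated KO library of its number; in a fit blocked by replicate number within genotype the KO change was 0.61 log2 and passed (edgeR adjusted p = 0.000332), as it did with libraries 2 and 3 alone (0.67 log2, edgeR adjusted p = 0.0312) and without KO with STm library 1 (0.93 log2, edgeR adjusted p = 0.0428).

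The balance of the PD-1 ligands can be read within each library, where scaling cancels, and is given with no test. Per kb, Cd274 exceeded Pdcd1lg2 by 9.49, 6.44 and 4.21 times in KO libraries with STm, against 4.06, 2.26 and 1.65 times in untreated KO libraries. In WT libraries the ratio was 14.5, 16.9 and 10.1 with STm and 6.62, 4.25 and 5.18 untreated. All KO libraries with STm lay below all WT libraries with STm, and all untreated KO libraries below all untreated WT libraries.

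Cd200, the ligand of the CD200 receptor on myeloid cells, had the lowest level per kb averaged over the 12 libraries, though Pdcd1lg2 was lower in WT with STm (27.0 CPM per kb, against 35.2 for Cd200). Cd200 had 72.8, 129.8 and 138 CPM in KO libraries with STm, against 29.1, 37.3 and 38.6 CPM in untreated KO libraries. The WT values were 68.4, 161 and 121 CPM with STm and 33.2, 38.5 and 53.3 CPM untreated. In both genotypes library 1 was the lowest of the treated libraries. The rise was 3.23-fold in KO cells (1.69 log2, SE 0.31, edgeR adjusted p = 0.00233) and 2.81-fold in WT cells (1.49 log2, SE 0.31, edgeR adjusted p = 0.00659).

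Havcr2, the checkpoint receptor gene, showed no detectable response. It had 470.0, 307 and 232 CPM in KO libraries with STm, against 559.9, 298 and 292 CPM in untreated KO libraries, and 680.3, 580.5 and 493 CPM in WT libraries with STm, against 682, 546 and 510.1 CPM in untreated WT libraries. The change was -0.19 log2 in KO cells (95% interval -0.81 to 0.43, edgeR adjusted p = 0.687) and 0.01 log2 in WT cells (-0.61 to 0.63, edgeR adjusted p = 0.982). The KO libraries were spread by number in both conditions, with library 1 highest.

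**Figure D2:**
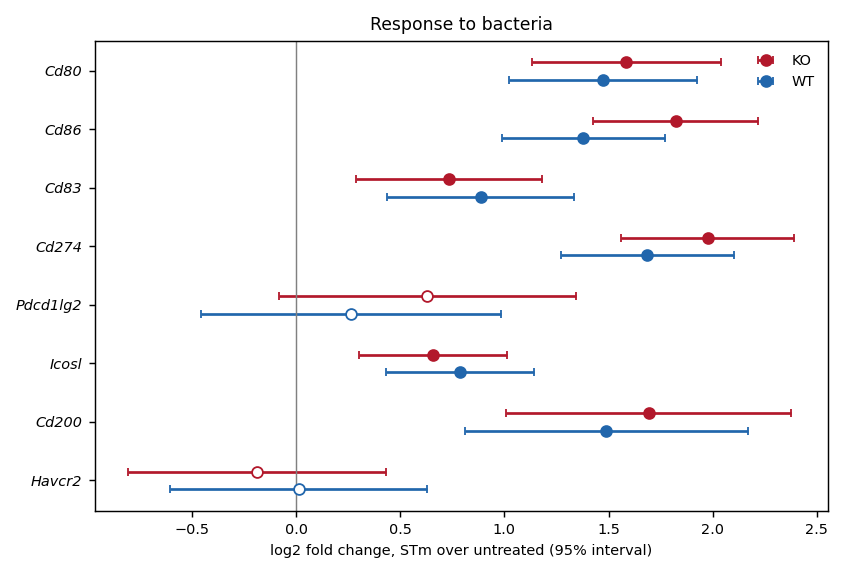
Change with bacteria (log2 fold change, STm over untreated) of each gene in KO (upper) and WT (lower) cells, with 95% intervals from the edgeR fit; filled points passed an adjusted p under 0.05. Cd274 and Cd86 lie farthest right in KO cells, at 1.98 and 1.82 log2, and the intervals of Pdcd1lg2 and Havcr2 include 0.

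Without bacteria, 4 of the 8 genes were lower in KO than in WT cells: Cd80, Cd83, Cd86 and Icosl. In that comparison 13% of all tested genes were called, 9.5% higher and 3.46% lower, and the members' median was -0.62 log2 against 0.01 log2 over all tested genes. With bacteria 3 were lower (Cd80, Cd83 and Icosl) and Pdcd1lg2 was higher, where 14.1% of all tested genes were called, 4.89% lower and 9.21% higher; the members' median was -0.49 log2 against -0.01 log2 over all genes. The response comparisons use the same libraries, so these differences are not independent of them.

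Among the genes lower in KO, Cd83 had the largest difference with STm. It averaged 2292 ± 767 CPM in KO with STm against 4557 ± 236 CPM in WT with STm (-0.99 log2, SE 0.21, edgeR adjusted p = 0.0085), and 1379 ± 304 CPM in untreated KO against 2467 ± 138 CPM in untreated WT cells (-0.84 log2, SE 0.21, edgeR adjusted p = 0.0184). Cd80 was lower by a similar factor, 0.596 of the WT level with STm (-0.75 log2, SE 0.20, edgeR adjusted p = 0.0305) and 0.552 of it untreated (-0.86 log2, SE 0.21, edgeR adjusted p = 0.0167). Icosl stood at 0.586 of the WT level with STm (-0.77 log2, SE 0.16, edgeR adjusted p = 0.00924) and 0.642 of it untreated (-0.64 log2, SE 0.16, edgeR adjusted p = 0.0226). In these 3 genes no KO library reached a WT library of the same condition; such separation occurred in 28.8% of all tested genes with STm and 37.4% untreated. Icosl lies on chromosome 10, as does Slc29a3, at a distance of 17.3 Mb.

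These calls depended on single libraries to different degrees. With STm, Cd83 and Icosl passed with any library left out (-1.30 to -0.85 log2 and -1.003 to -0.62 log2). Cd80 lost its call with STm without KO library 2 (-0.64 log2, edgeR adjusted p = 0.124) or 3 (-0.66, 0.124) or WT library 1 (-0.69, 0.0759), 2 (-0.79, 0.0575) or 3 (-0.76, 0.0785). Untreated, Cd80 lost it without KO library 2 (-0.78 log2, edgeR adjusted p = 0.0734) or 3 (-0.76, 0.0766) or WT library 1 (-0.81, 0.055). Untreated Cd83 lost it without KO library 2 (-0.79 log2, edgeR adjusted p = 0.081) or 3 (-0.78, 0.0866) or WT library 1 (-0.83, 0.0545) or 3 (-0.90, 0.0572). Untreated Icosl lost it without KO library 2 (-0.71 log2, edgeR adjusted p = 0.0598) or 3 (-0.61, 0.0949) or WT library 1 (-0.66, 0.0584), 2 (-0.71, 0.05) or 3 (-0.68, 0.0692). The sign was kept in all these fits.

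Cd86 passed the test untreated and not with bacteria. It averaged 1120 ± 15.8 CPM in KO with STm and 1318 ± 181 CPM in WT with STm (-0.24 log2, 95% interval -0.62 to 0.15, edgeR adjusted p = 0.409), and 317 ± 78.4 CPM in untreated KO and 507 ± 95.1 CPM in untreated WT cells (-0.68 log2, SE 0.18, edgeR adjusted p = 0.025). The change of that difference with bacteria was 0.44 log2 (95% interval -0.10 to 0.98) and did not pass (edgeR adjusted p = 1), so a smaller difference after bacteria is not shown. The untreated call of Cd86 was lost without KO library 2 (-0.60 log2, edgeR adjusted p = 0.0995) or 3 (-0.63, 0.102) or WT library 1 (-0.55, 0.0892). Cd274 was 0.80 of the WT level untreated (-0.32 log2, edgeR adjusted p = 0.309), with KO libraries at 316 to 361 CPM all below WT libraries at 404 to 447 CPM. With bacteria Cd274 (-0.03 log2, 95% interval -0.43 to 0.37, edgeR adjusted p = 0.937) and Cd200 (-0.04 log2, -0.71 to 0.62, edgeR adjusted p = 0.944) did not pass, and the untreated Cd200 difference was -0.25 log2 (-0.92 to 0.42, edgeR adjusted p = 0.675).

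Pdcd1lg2 went the other way. It averaged 100.1 ± 40.6 CPM in KO with STm against 44.4 ± 6.78 CPM in WT with STm, 2.25-fold higher (1.17 log2, SE 0.33, edgeR adjusted p = 0.036). That call was lost without KO library 2 (1.10 log2, edgeR adjusted p = 0.0997) or 3 (0.89, 0.158) or WT library 1 (1.05, 0.09), 2 (1.26, 0.0656) or 3 (1.21, 0.0946). Untreated it averaged 64.6 ± 23.4 CPM in KO and 37.0 ± 9.97 CPM in WT cells (0.80 log2, SE 0.33, edgeR adjusted p = 0.141), where KO library 1 lay inside the WT range. Havcr2 averaged 336 ± 122 CPM in KO with STm and 584 ± 93.9 CPM in WT with STm, without overlap (-0.80 log2, SE 0.29, edgeR adjusted p = 0.0828), and 383 ± 153 CPM in untreated KO and 579 ± 90.7 CPM in untreated WT cells (-0.60 log2, SE 0.28, edgeR adjusted p = 0.208). With the replicate number as a block the Havcr2 difference with STm passed (-0.85 log2, edgeR adjusted p = 0.00152), as it did without KO library 1 (-1.12 log2, edgeR adjusted p = 0.0218), and the untreated one passed without KO library 1 (-1.03 log2, edgeR adjusted p = 0.0258).

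**Figure D3:**
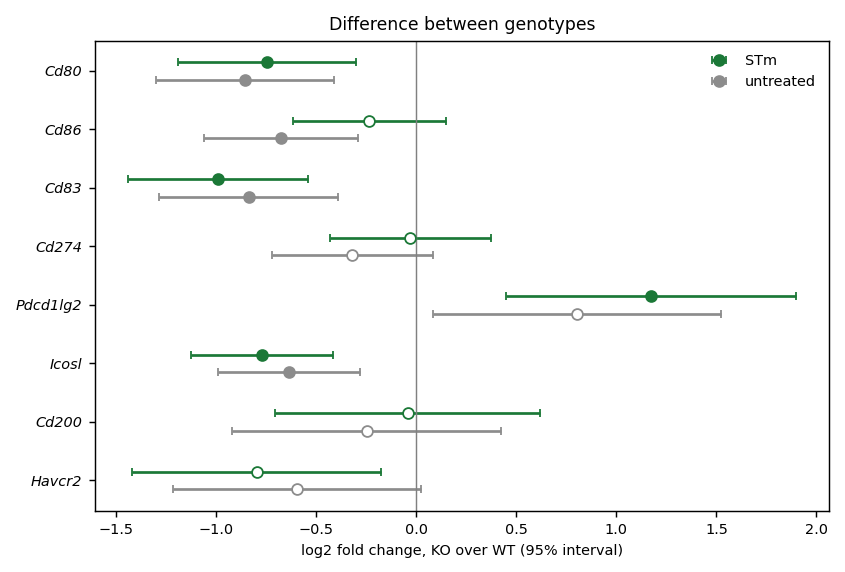
Difference between genotypes (log2 fold change, KO over WT) of each gene with STm (upper) and untreated (lower), with 95% intervals; filled points passed an adjusted p under 0.05. Cd83, Cd80 and Icosl lie left of 0 in both conditions, and Pdcd1lg2 lies right of 0, at 1.17 log2 with STm.

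The genotype differences of several members were smaller in libraries numbered 1 than in libraries 2 and 3, a contrast that was not tested. In libraries numbered 1, which held Y-linked and B cell counts, the KO minus WT difference with STm was -0.53 log2 for Cd83, -0.50 for Cd80, -0.26 for Icosl, -0.53 for Havcr2 and 0.60 for Pdcd1lg2, with 1 library a group and no test. In libraries 2 and 3 the same differences were -1.29 (edgeR adjusted p = 0.000145), -0.90 (0.000596), -1.06 (0.0011), -0.99 (0.00222) and 1.34 log2 (0.00152), all adjusted p by edgeR. Untreated, number 1 gave -0.60 log2 for Cd83, -0.58 for Cd80, -0.60 for Cd86, -0.60 for Icosl, -0.28 for Havcr2 and 0.52 for Pdcd1lg2. Numbers 2 and 3 gave -0.99, -1.05, -0.73, -0.66, -0.84 and 0.89 log2 for the same genes, and all 6 passed (edgeR adjusted p from 0.000272 to 0.0123). For each of these genes, number 1 and the fit on numbers 2 and 3 gave the same direction. With STm the values for number 1 and for numbers 2 and 3 were -0.27 and -0.21 log2 for Cd86 and -0.0022 and -0.04 log2 for Cd274. For Cd200 they were 0.09 and -0.07 log2, which differ in sign.

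Macrophage markers also differed between genotypes and over the KO library numbers. Their sum was 579, 912 and 1587 CPM in KO libraries 1 to 3 with STm and 590.0, 789 and 1344 CPM in untreated KO libraries, so library 1 had the lowest and library 3 the highest sum in both conditions. Pdcd1lg2 and Cd200 had the same order over the KO libraries in both conditions, and Cd83, Icosl and Havcr2 the opposite order. The remaining members kept neither order in both conditions. Of the genes in the order of the markers, Pdcd1lg2 was higher in KO with STm (1.17 log2, called) and untreated (0.80 log2, not called). Cd200 had genotype differences of -0.04 log2 with STm and -0.25 log2 untreated, and neither passed. Of the genes in the opposite order, Cd83 and Icosl were called lower in KO in both conditions. The Havcr2 differences (-0.80 log2 with STm, -0.60 log2 untreated) did not pass in the main fit. Macrophage genes such as C1qa stood at 40.9 to 159 CPM in KO with STm, 76.8 to 204 CPM in KO untreated, 1.28 to 5.09 CPM in WT with STm and 1.08 to 6.55 CPM in WT untreated libraries. The part of macrophages, neutrophils or monocytes (2 of 5 markers called higher in KO with STm, 3 of 5 untreated) in the genotype differences was not tested. The DC genes Zbtb46 and Cd74 were lower in KO in both conditions (-0.74 and -0.56 log2 with STm, -0.67 and -0.54 log2 untreated, each past the threshold), while Itgax averaged 691 ± 113 CPM in KO with STm, 805 ± 167 CPM in KO untreated, 723 ± 59.8 CPM in WT with STm and 769.8 ± 37.4 CPM in WT untreated cells. B cell markers (0 of 6 called) did not pass in either genotype comparison.

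**Figure D4:**
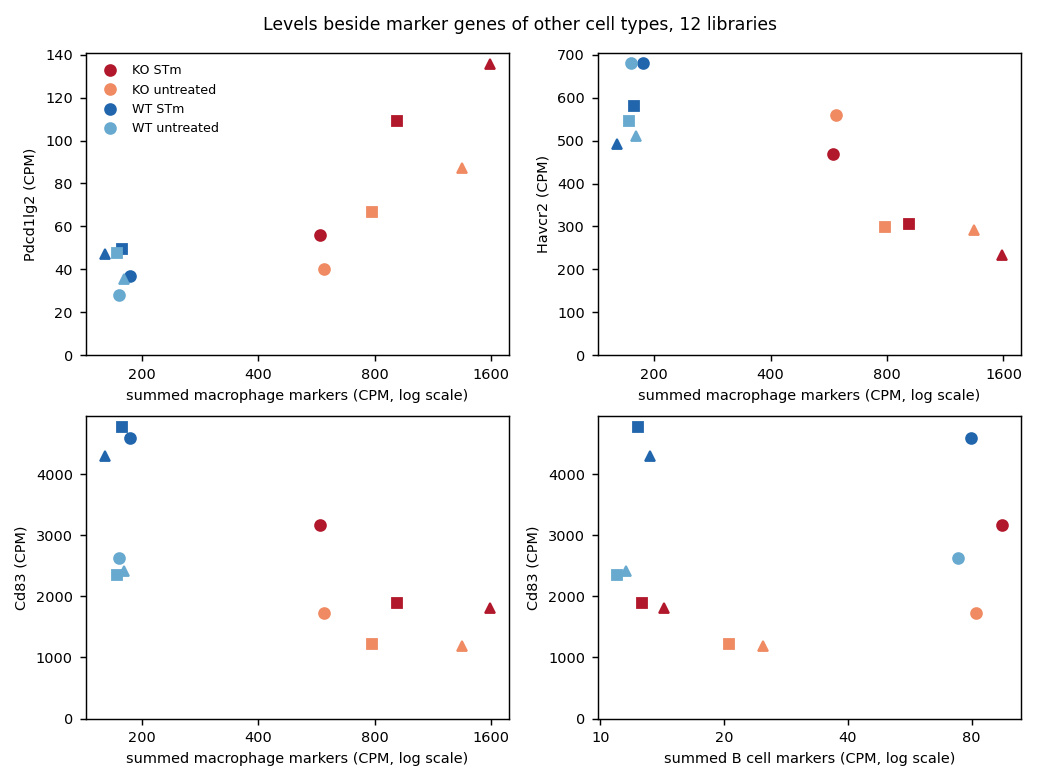
Levels (CPM, from 0) of Pdcd1lg2, Havcr2 and Cd83 against the summed CPM (log axis) of 7 macrophage markers or 6 B cell markers in the 12 libraries; circles, squares and triangles are libraries 1, 2 and 3, and colours give the group. KO libraries lie at 579 CPM of macrophage markers or more and WT libraries at 187 CPM or less, and libraries 1 hold the most B cell marker counts in each group.

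Whether the response differed between genotypes was tested as the KO response minus the WT response. No member passed, with estimates from -0.20 log2 (Havcr2, 95% interval -1.08 to 0.67) to 0.44 log2 (Cd86), and 0 of 8 reached an unadjusted p under 0.05. Over all 14293 tested genes edgeR called 0%, or 0 genes (608 had an unadjusted p under 0.05), limma-voom 0, the DESeq2 Wald test 6, and edgeR blocked by replicate number within genotype 41, none of them a member. The intervals of the 8 members reached 0.98 log2 for Cd86, 1.38 log2 for Pdcd1lg2 and 1.15 log2 for Cd200. Differences of response within these intervals were not excluded.

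Other genes of these pathways were followed in lists written from general knowledge, with earlier results of these data known. Of 7 B7 and butyrophilin relatives 3 were tested. Vsir, which encodes the checkpoint ligand VISTA, rose in WT cells (0.95 log2, SE 0.26, edgeR adjusted p = 0.0233), and it was higher in untreated KO than in untreated WT cells (3.52-fold, 118 ± 47.6 against 33.6 ± 6.93 CPM, edgeR adjusted p = 0.00134). With STm its genotype difference did not pass (88.6 ± 10.0 CPM in KO against 65.1 ± 10.4 CPM in WT, 1.36-fold, edgeR adjusted p = 0.266). The KO response of Vsir minus its WT response was -1.37 log2 (SE 0.36). It did not pass in the main edgeR fit, so a difference of response is not shown. Cd276 (B7-H3) was higher in KO in both conditions, with 20.4 ± 7.80 CPM in KO against 2.94 ± 1.42 CPM in WT with STm and 25.5 ± 11.8 CPM in KO against 2.48 ± 1.46 CPM in WT untreated (edgeR adjusted p = 0.00527 and 0.00216). Neither gene was called in the KO response, and macrophage markers were higher in KO in both conditions; their part was not tested.

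Among 8 tested genes of other inhibitory ligands, 5 rose and 1 fell with bacteria in each genotype, with medians of 0.83 log2 in KO and 0.80 log2 in WT cells. Lgals9, a ligand of TIM-3, rose 6.75-fold in KO and 7.62-fold in WT cells (edgeR adjusted p = 0.000922 and 0.00121). Pvr (CD155), the ligand of TIGIT and CD226, rose 3.84-fold in KO and 4.10-fold in WT cells, and its relative Nectin2 3.29-fold and 3.60-fold in the same order (edgeR adjusted p from 2.16e-06 to 6.72e-05). Ceacam1 fell with bacteria (-1.81 log2 in KO, -1.15 log2 in WT cells; edgeR adjusted p = 3.12e-05 and 0.00121). Between genotypes Tnfrsf14 (HVEM) was higher in KO in both conditions (0.85 log2 with STm, 1.09 log2 untreated; edgeR adjusted p = 0.0103 and 0.00309) and Pvr lower with STm (-0.51 log2, edgeR adjusted p = 0.025).

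Of 13 genes for receptors, 3 rose and 1 fell in KO cells and 3 rose in WT cells. Lag3 (4.43-fold in KO, 4.27-fold in WT), Btla (3.90-fold and 2.90-fold) and Icos (2.13-fold and 2.09-fold) rose in both. T cell markers did not pass (0 of 5) and summed to at most 16.8 CPM in any library, and Icos averaged 5.06 to 11.2 CPM over the groups. Which cells carried these RNAs was not tested. Rgmb, which encodes a binding partner of PD-L2, fell in KO cells (-0.53 log2, edgeR adjusted p = 0.00723). Its change in WT cells was -0.28 log2 (edgeR adjusted p = 0.127), and its KO response minus its WT response (-0.26 log2, SE 0.17) did not pass. Between genotypes Cd200r1 and Cd200r4 were higher in KO with STm and Rgmb lower (-0.41 log2, edgeR adjusted p = 0.0417), and untreated Cd200r1, Cd200r4 and Cd226 (1.797 log2, edgeR adjusted p = 0.0395) were higher. Cd200r1, the receptor for CD200, had 36.5 ± 23.5 CPM in KO against 1.52 ± 0.34 CPM in WT with STm and 29.4 ± 19.5 CPM in KO against 1.55 ± 0.63 CPM in WT untreated cells (edgeR adjusted p = 0.00138 and 0.00178); reads of its close relative Cd200r4 may be shared with it. Cd200r4 had 6.58 ± 4.32 CPM in KO against 0.27 ± 0.18 CPM in WT with STm, and at most 2 counts per untreated WT library, so no fold is given.

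Of 7 genes for proteins that set surface levels of these ligands, March1 and March8 differed between genotypes. March1, whose product tags CD86 and MHC class II for turnover, averaged 57.0 ± 28.3 CPM in KO against 3.48 ± 1.95 CPM in WT with STm (4.04 log2, SE 0.49, edgeR adjusted p = 0.00057) and 37.3 ± 15.7 CPM in KO against 6.62 ± 1.88 CPM in WT untreated cells (2.49 log2, SE 0.45, edgeR adjusted p = 0.00419). March8, its close relative, was 6.71-fold higher in KO with STm and 6.51-fold higher in KO untreated (edgeR adjusted p = 0.000368 and 0.000347). Cmtm4 was also higher in untreated KO (0.90 log2, edgeR adjusted p = 0.0493) and fell with bacteria in KO cells (-1.16 log2, edgeR adjusted p = 0.0101), where Spop rose (0.36 log2, edgeR adjusted p = 0.0407); no gene of this list was called in the WT response. With STm the genotype difference of Cmtm4 did not pass (0.37 log2, edgeR adjusted p = 0.421). The KO response minus the WT response was -0.53 log2 (SE 0.39) for Cmtm4 and 0.09 log2 (SE 0.16) for Spop, and neither passed. Macrophage markers were higher in KO in both conditions, and their part in these differences was not tested.

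Of 10 genes for NF-kB, STAT and IRF factors that act on members of this group, 8 rose in KO cells and 8 in WT cells, with medians of 0.99 log2 and 0.90 log2. Stat2 rose by 2.78 log2 in KO and 2.18 log2 in WT cells, Irf1 by 1.62 and 1.43 log2, and Irf9 by 1.61 and 1.51 log2, with edgeR adjusted p of 4.19e-05 or less. Between genotypes 1 of the 10 was called higher in KO and 1 lower untreated, and 1 higher and 0 lower with STm. The lower one was Irf1, in untreated KO against untreated WT cells (-0.49 log2, edgeR adjusted p = 0.0424). Of 9 tested genes of mature DCs, 6 rose in KO and 4 in WT cells, among them Ccl22 (4.41-fold in KO, 3.16-fold in WT), the actin bundler Fscn1 (2.81-fold and 2.32-fold) and the migration receptor Ccr7 (2.01-fold and 2.14-fold). In that list 2 genes were lower in KO with STm, Ccl22 (-1.44 log2) and Samsn1 (-0.66 log2), and 3 untreated, Ccl22 (-1.92 log2), Samsn1 (-0.56 log2) and Cacnb3 (-0.53 log2), and none was higher.

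The genes whose log2 CPM ran most like each member over the 12 libraries were listed as a description, since libraries of a group share genotype, treatment and preparation. They were Appl1, Etv6 and Ddx6 for Cd80, Tgoln1, Pik3r5 and the inflammasome sensor gene Nlrp3 for Cd86, and Rhof, Dot1l and Ccnt1 for Cd83. Cd274 ran with Rab22a, N4bp1 and Ptpn2, a phosphatase gene of JAK and STAT signalling, and Cd200 with Ell2, Ghitm and Naa25. Icosl ran with Ibtk, Zc3h12c and Dapp1, Pdcd1lg2 with Tcirg1, Smpdl3a and Eaf1, and Havcr2 with Mink1, Zmiz2 and Rab11fip4. The Pearson coefficient behind these 24 pairings was at least 0.965, with Appl1 and Cd80 the highest at 0.993.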

How the data were processed

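Gene counts were deposited by the authors as raw whole numbers. Per the submitters' processing notes, CASAVA 1.8 called the bases and HISAT2 aligned reads to mm10; which tool, strand setting and annotation made the counts is not stated. Libraries were random-primed, per the labels' protocols.

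The analysis used edgeR 4.0.16 (R 4.3.3). The filter filterByExpr kept 14293 of 54532 genes, TMM factors scaled the libraries, and 1 robust quasi-likelihood model, with a term for each group, was fitted to all 12. Adjusted p-values are Benjamini-Hochberg values over all tested genes of a contrast, called under 0.05. Each SE was taken as |log2 fold change| divided by the root of F. CPM use TMM-scaled totals and are divided by the table's gene length where genes are compared. The fit was first tested on simulated data. Members and lists were chosen with earlier results of these data known.

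The genes named are the 8 members, from each list of related genes the called genes with the largest change in a contrast (at most 4), the deleted gene, and the 3 genes most correlated with each member in log2 CPM (prior count 2). The marker genes C1qa, Itgax, Zbtb46 and Cd74 lie outside that rule and were named after their values were seen. All 116 list symbols were found. The values of 1 list gene are not reported here. Markers covered DCs and their cDC1, cDC2 and plasmacytoid subsets, macrophages, monocytes, neutrophils, and B, T and NK cells.

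Deviations of same-numbered libraries from their group means correlated across treatment within a genotype, with r from 0.226 to 0.530 in 6 pairs. Across genotype r was 0.115 to 0.314 with STm and 0.0787 to 0.323 untreated. With 3 libraries a group, a trait that sets number 1 apart also raises r for numbers 2 and 3. Unlike numbers were not compared, so these values do not establish a pairing. The labels state no pairing, and the main model held no term for the number, so the main results are unpaired. Fits with the number as a block are given as alternatives. Alternatives were size factors of DESeq2, library totals or upper quartiles, the tests of DESeq2 1.42.0 and limma-voom (limma 3.58.1), a light filter (10 counts in all), a strict filter (1 CPM in every library of a group), only the groups compared, replicate blocks, libraries 2 and 3 alone, and each library left out. Figures used matplotlib 3.10.9 in Python 3.11.15.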

Additional observations from a re-analysis of the deposited data

How the results depend on the processing

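The count of called members stayed within 1.5 times of 6 (responses in KO and in WT), 4 (both genotype comparisons) and 0 (interaction) under every other scaling, tool, filter and block. Leaving out each library gave 4 to 6 called members for the KO response, 5 to 6 for the WT response, 0 to 5 for KO against WT untreated, 2 to 5 for KO against WT with STm, and 0 for the interaction. For KO against WT untreated no member was called without KO untreated library 2 or 3 or WT untreated library 1, and 2 were without WT untreated library 3. With STm 2 were called without KO library 2 or 3 or any WT library. These fits hold fewer samples.

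Under library totals alone the median of all genes moved to -0.38 log2 (KO response) and -0.35 (WT response); 1030 genes rose and 4691 fell in KO and 799 and 4225 in WT, against 1654 and 1638 in KO and 1522 and 1154 in WT with TMM. Genotype calls were then 84.4% higher untreated and 83.9% with STm, against 73.3% and 65.3%; the upper-quartile split of the WT response was 43.6% higher, against 56.9%. Cd83 and Icosl lost their response calls with totals (0.43 and 0.35 log2 in KO, 0.57 and 0.47 in WT), as did Icosl untreated (-0.55) and Cd80 with STm (-0.65) between genotypes. Values turned in sign, none of them called, for Pdcd1lg2 in the WT response (-0.0595 with totals), Havcr2 in the WT response (-0.30 totals, -0.0625 upper-quartile, -0.0026 light filter), Cd274 with STm between genotypes (0.0664 totals, 0.0041 limma-voom) and Cd200 with STm between genotypes (0.0474 totals). The cause was not tested.

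With a library left out, signs also turned for uncalled values: Cd274 (-0.19 to 0.26) and Cd200 (-0.32 to 0.26) with STm between genotypes, Havcr2 in the KO response (-0.50 to 0.22) and the WT response (-0.11 to 0.12), and the interactions of Cd80 (-0.10 to 0.45), Cd83 (-0.46 to 0.10), Icosl (-0.35 to 0.0306), Cd200 (-0.0559 to 0.52) and Havcr2 (-0.51 to 0.23). Pdcd1lg2 with STm between genotypes missed the threshold with limma-voom (1.08, adjusted p = 0.0542) and the light filter (1.18, adjusted p = 0.0689). Fitted on the 2 groups compared, Cd83 in KO (adjusted p = 0.0842), Cd86 untreated (0.0528) and Icosl with STm (0.0601) were lost and Cd274 untreated passed (-0.33, 0.0473); that fit called 1074 genes between genotypes with STm, against 2016.

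With the replicate number across all groups as a block, 6 members were called untreated and 5 with STm between genotypes; untreated Pdcd1lg2 (0.76, edgeR adjusted p = 0.0131) and Havcr2 (-0.65, edgeR adjusted p = 0.00636) then passed. The block changed no other member's call beyond those given beside the results. Over all genes, calls ranged over the alternatives from 2132 to 5721 (KO response, 3292 here), 1509 to 5024 (WT response, 2676), 863 to 2584 (untreated genotype, 1852), 1028 to 2942 (genotype with STm, 2016) and 0 to 41 (interaction, most with the block within genotype).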
